A study of Mus musculus with 3647 samples.

Results

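The nuclei described here are hippocampal nuclei with messenger RNA of Slc17a7, the vesicular glutamate transporter of most forebrain glutamatergic neurons. They were found on mouse plates sorted for GFP that the submitters describe as Pvalb-positive. Members were chosen by their own values: a nucleus was kept when Snap25, a synaptic protein gene of neurons, and Slc17a7 were above 0 and Slc17a7 exceeded the sum of Gad1 and Gad2, the enzymes that make GABA. Plate names put the hippocampal nuclei in an X061616 set of 3 plates and an X041317 set of 4 plates. The rule kept 27 of 61, 21 of 56 and 17 of 57 nuclei with values on the X061616 plates p3, p4 and p5, and 31 of 77, 37 of 78, 23 of 76 and 31 of 78 on the X041317 plates p1, p2, p6 and p7. Together these are 38.7% of the hippocampal nuclei with values (exact Clopper-Pearson 95% interval 34.3 to 43.2%), in a series of 3647 samples of which 2653 have values. Intervals on shares cover counting error only. Prox1 was above 0 in 15 of the X061616 nuclei and 30 of the X041317 nuclei, here called Prox1>0 nuclei (45 in all), and at 0 in 50 and 92, here called Prox1=0 nuclei. The outside groups used for comparison were 3: nuclei of the same plates with Gad1 plus Gad2 above Slc17a7 (59 with Prox1 above 0 and the rest with Prox1 at 0), 52 nuclei of M2 cortex and 22 nuclei of somatosensory cortex that met the same rule as the hippocampal nuclei. The submitters sorted on a DNA dye and GFP, and 170 of the nuclei carried that sort label while 17, all on plate X041317p1, carried none. The allele behind GFP, the strain, the sex and the age are not stated in the labels used. No animal is named either, so a group stands for 1 sample and groups were not tested against each other. Differences are therefore described by their size in each plate set and over plates, and plates are a spread, not replicates.

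The hippocampus passes signals along a chain of glutamatergic neurons. Granule cells of the dentate gyrus send mossy fibres to pyramidal neurons of CA3, which in turn project to pyramidal neurons of CA1. Prox1 is the homeobox transcription factor that specifies and maintains dentate granule cells, and it is also found in some cortical and hippocampal interneurons. Neurod6, a basic helix-loop-helix factor, marks pyramidal neurons, and Camk2a encodes a calcium-dependent kinase subunit abundant in forebrain glutamatergic neurons.

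The promoters of 3 genes that the Prox1 comparison turns on are shown, since basic helix-loop-helix factors such as Neurod6 bind E-boxes: Prox1 itself, C1ql2, a secreted protein of mossy fibre synapses, and Neurod6. Each window is RefSeq sequence of GRCm38.p6, 300 bases long, 250 before to 50 after an annotated start, written 5′ to 3′ on the strand of the gene, with matches to the motif CANNTG in capitals. The motif is its own reverse complement, so a search of 1 strand covers both, and no match shown overlaps another. The Prox1 window lies at chr1:190170778-190171077 on the minus strand and is the upstream of 2 RefSeq windows; the other holds 0 matches. The C1ql2 window lies at chr1:120340332-120340631 on the plus strand, and the Neurod6 window at chr6:55681214-55681513 on the minus strand.
Prox1: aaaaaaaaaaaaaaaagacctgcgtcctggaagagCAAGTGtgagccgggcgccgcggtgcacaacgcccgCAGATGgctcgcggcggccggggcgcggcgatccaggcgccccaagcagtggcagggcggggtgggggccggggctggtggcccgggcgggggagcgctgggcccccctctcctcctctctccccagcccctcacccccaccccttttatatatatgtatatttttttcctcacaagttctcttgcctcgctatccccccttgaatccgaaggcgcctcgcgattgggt
C1ql2: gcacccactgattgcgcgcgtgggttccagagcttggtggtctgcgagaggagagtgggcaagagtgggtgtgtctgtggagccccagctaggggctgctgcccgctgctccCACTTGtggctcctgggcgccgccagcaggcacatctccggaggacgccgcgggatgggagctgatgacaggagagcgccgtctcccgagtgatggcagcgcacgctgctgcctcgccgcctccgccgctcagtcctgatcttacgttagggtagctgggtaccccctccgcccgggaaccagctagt
Neurod6: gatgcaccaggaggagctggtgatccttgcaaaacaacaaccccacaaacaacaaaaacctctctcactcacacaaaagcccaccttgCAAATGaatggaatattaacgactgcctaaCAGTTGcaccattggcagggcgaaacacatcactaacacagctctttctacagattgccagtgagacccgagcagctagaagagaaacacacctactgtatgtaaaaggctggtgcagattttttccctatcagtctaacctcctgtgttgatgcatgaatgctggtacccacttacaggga
The windows hold 2 matches in Prox1 (CAAGTG and CAGATG), 1 in C1ql2 (CACTTG) and 2 in Neurod6 (CAAATG and CAGTTG). Of 32851 mouse windows of this length, 72.3% hold at least 1 match and 39.6% hold at least 2; a match is a description of letters and not a binding site.

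Levels are TPM, a unit in which the genes of each nucleus sum to the same total, and a gene is called found in a nucleus when its TPM is above 0. Since TPM do not carry the read depth, the number of genes found is given in its place. The Prox1>0 nuclei had a median of 4140 genes found (2639 to 8616), and the Prox1=0 nuclei had 4682.5 (1820 to 7701). The split was wider in the X041317 set, at 3638 against 4682.5 genes, than in the X061616 set, at 4497 against 4636.5 genes. Every plate held such nuclei: between 29.8% (X061616p5) and 47.4% (X041317p2) of the hippocampal nuclei on a plate met the rule. Xist was found in all 45 Prox1>0 nuclei and in 97.9% of the Prox1=0 nuclei. Its level was higher in Prox1>0 nuclei by the size rule given below, by 1.24 in mean log2(TPM + 1), on 7 of 7 plates. Between the plate sets it was lower by 1.16 in X061616 nuclei and did not pass. Of 4 Y-linked genes Eif2s3y and Kdm5d were found in none, while Ddx3y and Uty were found in 0 Prox1>0 nuclei and in 2 Prox1=0 nuclei each.

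Genes from marker lists of other cell types were commonly found in these nuclei, and where that RNA came from was not tested. At least 3 genes of an oligodendrocyte, astrocyte or microglia list were found in 23 of 45 Prox1>0 nuclei (51.1%) and 40.1% of the Prox1=0 nuclei. In the X061616 set alone these were 13 of 15 Prox1>0 nuclei (86.7%) and 19 of 50 Prox1=0 nuclei (38%), and in the X041317 set 10 of 30 (33.3%) and 38 of 92 (41.3%). Ttr, the main transcript of choroid plexus, was found in 61 of the nuclei (32.6%), so a gene found at a low or moderate share is not by itself expression by the nucleus. The part of RNA from other cells in any difference below was not tested. For some differences a value without the nuclei carrying at least 3 genes of a glial list is given.

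The genes used by the rule set the limits of the group and are given as a description. Slc17a7 ran from 2.46 to 855.7 TPM with a median of 46.4. Among the hippocampal nuclei with both Snap25 and Slc17a7, 76 had Slc17a7 at or below the Gad sum. The nucleus closest to the limit on the inside had 151.2 TPM of Slc17a7 against 148.4 TPM of Gad1 plus Gad2, and the closest outside had 3.34 against 4.02 TPM. At least 1 Gad gene was above 0 in 51 of the nuclei kept. Gad1 was found in 8 of 45 Prox1>0 nuclei (17.8%) and 4 Prox1=0 nuclei (2.82%), and Gad2 in 24.4% and 22.5%. Low values of Prox1 decide some assignments: its lowest value above 0 was 2.02 TPM, and 7 of the 45 nuclei lay under 10 TPM. The median was 155.1 TPM and the highest 657.8 TPM. Of the genes that passed the Prox1 comparison below, 81.25% did so again with Prox1 above 10 TPM.

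The label was checked on genes that the rule did not use. Camk2a was found in 97.9% of the nuclei (94.6 to 99.4%), at a median of 771.6 TPM (0 to 2592) in Prox1>0 nuclei and 712.7 TPM (0 to 3729) in Prox1=0 nuclei. The ranges overlap almost completely. Neurod6 was found in 70.6% of the nuclei. Slc32a1, the vesicular GABA transporter, was found in 0 of 45 Prox1>0 nuclei and in 2 Prox1=0 nuclei (1.41%). A limit of 3 in 45 nuclei, used in place of an exact interval, allows a share of up to 6.67% in Prox1>0 nuclei. Slc32a1 was found in 33.2% of the nuclei with Gad above Slc17a7. Pvalb, the calcium-binding protein gene that the submitters' description of the plates names, was found in 3 of the nuclei (1.6%), against 93 nuclei with Gad above Slc17a7 (46%). Slc17a6, the other main vesicular glutamate transporter, was found in 6.95%.

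Prox1>0 nuclei made up 24.1% of the Slc17a7 nuclei (18.1 to 30.8%). The share was 15 of 65 (23.1%, 13.5 to 35.2%) in the X061616 set and 24.6% (17.2 to 33.2%) in the X041317 set. Single plates ran from 2 of 21 nuclei (9.52%) on X061616p4 to 11 of 31 (35.5%) on X041317p7. The intervals of these plates overlap, and plates were not tested against each other. Leaving out any 1 plate gave shares of 21.8 to 26.9%.

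The Prox1 comparison asks which genes separate nuclei of dentate type from the rest. Genes of dentate granule cells were higher in the Prox1>0 nuclei, and the pyramidal factor Neurod6, the vesicle protein Sv2b, the peptide Cck and some activity-regulated genes, among them Arc, were lower. A gene counted as higher or lower when the mean log2(TPM + 1) differed by at least 1 in the same direction in both plate sets and the gene was found in at least 20% of the higher group in both. By this size rule 2.09% of 12729 genes were higher and 2.18% lower in Prox1>0 nuclei. The balance was not stable: higher genes made up 48.9% of those that passed, 64.6% without plate X041317p7, 60.2% without X061616p3, 33.8% among nuclei with both Gad genes at 0 and 25.2% without the nuclei carrying at least 3 genes of a glial list. Differences below are Prox1>0 minus Prox1=0 on this log2 scale, with the X061616 set before the X041317 set, and they understate the ratio of genes with low TPM.

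C1ql2, which is placed at chr1:120340582-120343174 (GRCm38), was found in 28 of 45 Prox1>0 nuclei (62.2%, 46.5 to 76.2%) and 12 Prox1=0 nuclei (8.45%, 4.44 to 14.3%). Its TPM ran from 0 to 2873 with a median of 253.1 in Prox1>0 nuclei, against 0 to 1612 with a median of 0 in Prox1=0 nuclei. The ranges overlap and both groups hold nuclei at 0, but the median Prox1=0 nucleus had none. The difference was 3.74 and 5.33, with plates between 1.57 and 7.81, all 7 above 0. Neurod6, at chr6:55677822-55681263 (GRCm38), showed the opposite pattern: it was found in 16 of 45 Prox1>0 nuclei (35.6%, 21.9 to 51.2%) and 81.7% of Prox1=0 nuclei (74.3 to 87.7%). Its median was 0 TPM (0 to 1695) in Prox1>0 nuclei and 753.4 TPM (0 to 3302) in Prox1=0 nuclei. The difference was -3.79 and -5.30, and all 7 plates lay below 0 (-5.94 to -2.45). Both genes together were found in 7 of 45 Prox1>0 nuclei (15.6%) and 6 Prox1=0 nuclei (4.23%), and neither in 8 of 45 (17.8%) and 20 Prox1=0 nuclei (14.1%).

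**Figure D1:**
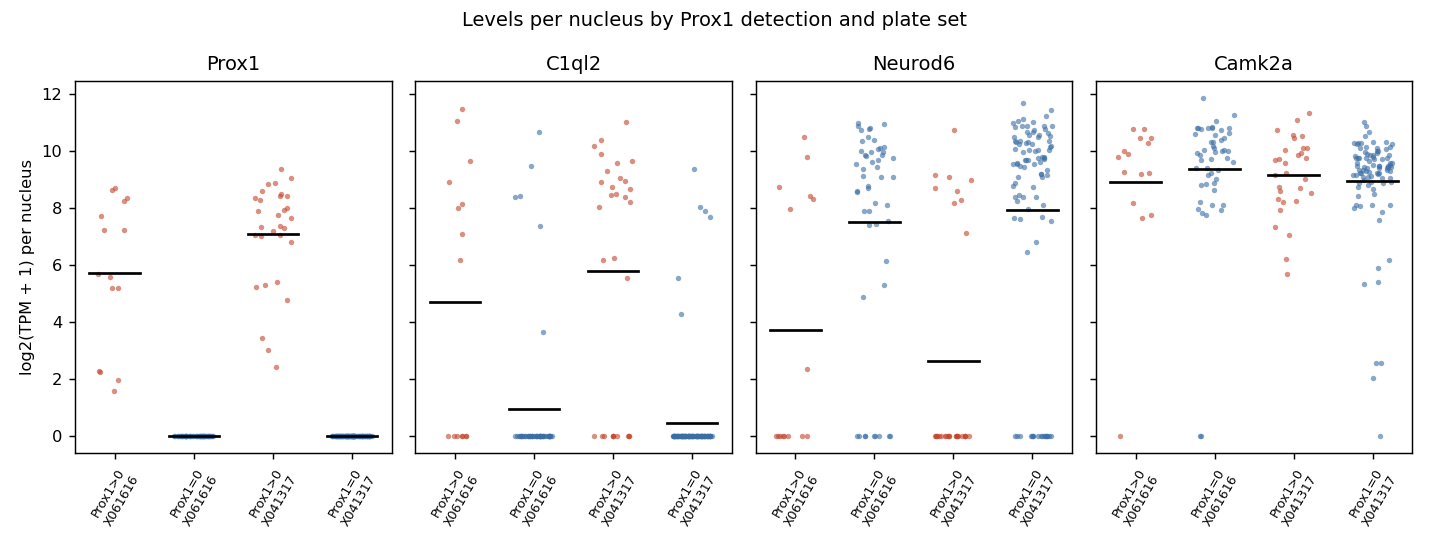
Each point is 1 nucleus, with log2(TPM + 1) on the y axis and the nuclei split by Prox1 and plate set on the x axis; black lines are means over nuclei. Prox1 itself defined the split, C1ql2 was found in 62.2% of Prox1>0 and 8.45% of Prox1=0 nuclei, Neurod6 in 35.6% and 81.7%, and Camk2a was found in nearly all nuclei of each group.

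Besides C1ql2, the 12 genes with the largest differences on the higher side included Synpr, Lrrtm4 and Grm2. Synpr, which encodes the synaptic vesicle protein synaptoporin, was found in 62.2% of Prox1>0 nuclei and 16.2% of Prox1=0 nuclei, with differences of 4.37 and 4.03. Lrrtm4, a postsynaptic adhesion protein that organizes excitatory synapses, was found in 75.6% and 18.3%, with a median of 97.6 TPM (0 to 2478) in Prox1>0 nuclei and 0 TPM (0 to 539.7) in Prox1=0 nuclei. Grm2, a presynaptic metabotropic glutamate receptor that dampens release at mossy fibres, was found in 68.9% and 15.5%, with differences of 3.42 and 4.26. All 7 plates placed these genes higher in Prox1>0 nuclei. This is a description, since the genes were picked for their differences in the same nuclei. Some plates also hold few Prox1>0 nuclei, with 2 on X061616p4 and 3 on X041317p1. Synpr no longer passed the size rule among nuclei with both Gad genes at 0, where its mean difference was 1.94.

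The other 8 genes with the largest differences on the higher side were Fam163b, Pitpnm2, Il1rap, Dtna, Trpc6, Slc4a4, Kctd4 and Maml2. Pitpnm2, a phosphatidylinositol transfer protein, was found in all 45 Prox1>0 nuclei (0.6 to 699.7 TPM, median 171.7) and in 57% of Prox1=0 nuclei (0 to 851.4 TPM, median 3.43). Trpc6, a receptor-operated cation channel, was the most restricted of the 8, at 27 of 45 Prox1>0 nuclei (60%) and 10 Prox1=0 nuclei (7.04%). Slc4a4, a sodium bicarbonate cotransporter, was found in 71.1% and 12%, and Maml2, a coactivator of Notch signalling, in 64.4% and 20.4%. Fam163b was found in 86.7% and 36.6%, and Kctd4 in 75.6% and 25.4%. Il1rap, an accessory subunit of interleukin receptors, was found in most nuclei of both groups (88.9% and 63.4%) but at a median of 435.6 TPM in Prox1>0 nuclei against 29.1 TPM in Prox1=0 nuclei. Dtna, a dystrophin-associated protein, was likewise found in 95.6% and 55.6%. Each of the 8 was higher in Prox1>0 nuclei on all 7 plates. Slc4a4 no longer passed among nuclei with both Gad genes at 0 (mean difference 2.72).

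**Figure D2:**
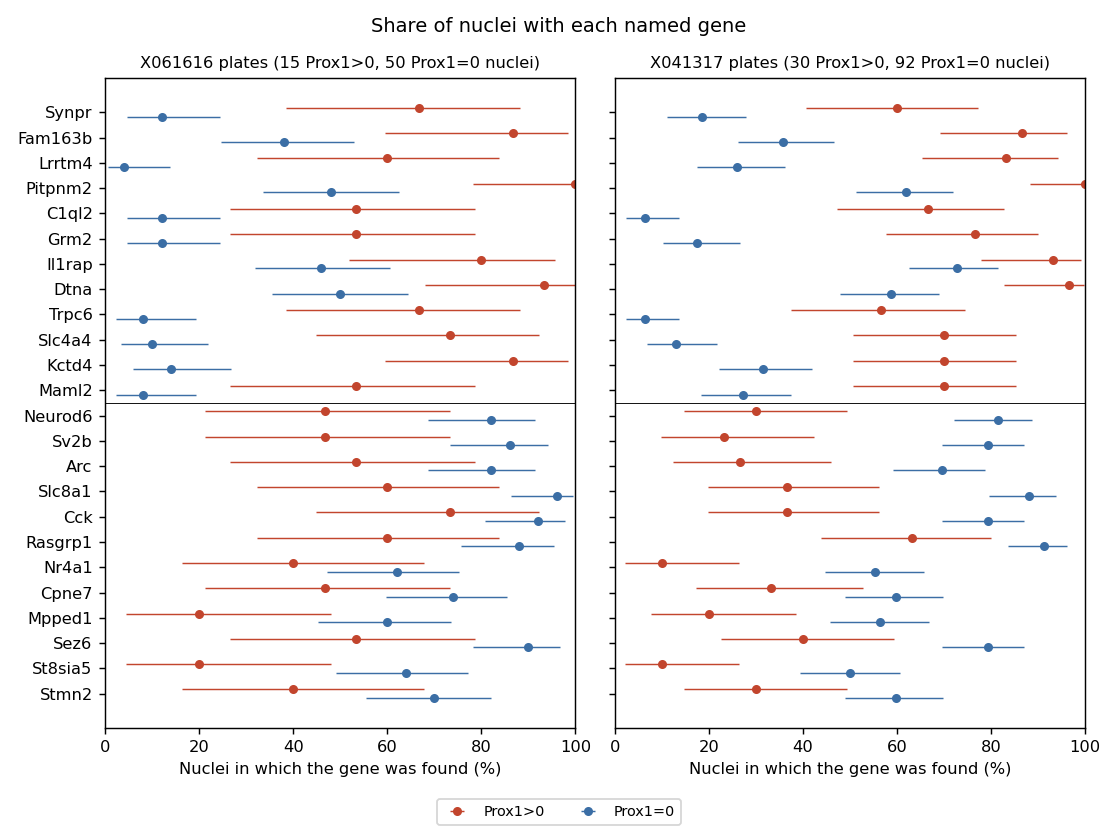
The x axis gives the share of nuclei in which each gene was found, in percent, with exact Clopper-Pearson 95% intervals, for Prox1>0 and Prox1=0 nuclei of each plate set. The 12 genes above the line have larger shares in Prox1>0 nuclei and the 12 below it larger shares in Prox1=0 nuclei in both sets, as with Trpc6 (60% against 7.04% over both sets) and Sv2b (31.1% against 81.7%).

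Of the 16 dentate granule genes that entered besides Prox1, 11 were higher and 0 lower, with a median difference of 2.68 against 0.04 for all genes. Next to C1ql2, Trpc6 and Maml2 they included Rfx3, a transcription factor of ciliated and neural cells (86.7% of Prox1>0 nuclei and 52.1% of Prox1=0 nuclei), and Glis3, a zinc finger factor (48.9% and 4.22%). Calb1, the calcium buffer calbindin, was found in 66.7% and 31.7%, with differences of 3.62 and 2.58, and was higher on 6 of 7 plates. Stxbp6, a regulator of SNARE complexes, was found in 77.8% and 47.9%. The 5 that did not pass were C1ql3, Dsp, Il16, Pdzd2 and Bcl11b. Dsp, the junction protein desmoplakin, still differed in share, at 31.1% and 6.34%, with differences of 0.77 and 1.60. Counted per nucleus, the 17 listed genes without Prox1 gave a median of 9 found (2 to 14) in Prox1>0 nuclei and 3 found (0 to 12) in Prox1=0 nuclei. The ranges overlap, and some Prox1=0 nuclei had as many dentate genes as the Prox1>0 nuclei.

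Markers of the CA fields went less far. None of the 10 CA1 genes was higher and 4 were lower, with a median difference of -1.10: Mpped1, Wfs1, Man1a and Spink8 (2 lower with a pseudocount of 10). Wfs1, the endoplasmic reticulum protein wolframin, was found in 37.8% of Prox1>0 nuclei and 54.9% of Prox1=0 nuclei, and Spink8 in 6.67% and 34.5%. Fibcd1 differed by -3.06 and -0.42 and did not pass. The CA1 genes gave a median of 1 found per nucleus (0 to 9) in Prox1>0 nuclei and 3 (0 to 9) in Prox1=0 nuclei, so CA1 genes were not uniform among Prox1=0 nuclei. Of 10 CA3 genes that entered 1 was higher (St18) and 0 lower, with a median of -0.06, and the CA3 gene Iyd was found in 1.6% of the Slc17a7 nuclei. Of 6 CA2 genes only Pcp4 passed, higher by 1.78 and 1.94. Lists of hilar mossy cells (Ociad2) and subiculum (Lypd1) each had 1 gene lower, and 0 of 1 Cajal-Retzius gene that entered passed. The split by Prox1 does not compare the CA fields with each other, and the nuclei were not divided further into fields. Some Prox1=0 nuclei, on plates X041317p1 and X041317p6, had 0 CA1 and 9 CA3 genes found, and another had 7 CA1 and 0 CA3 genes. Whether field markers separate the Prox1=0 nuclei was not tested.

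**Figure D3:**
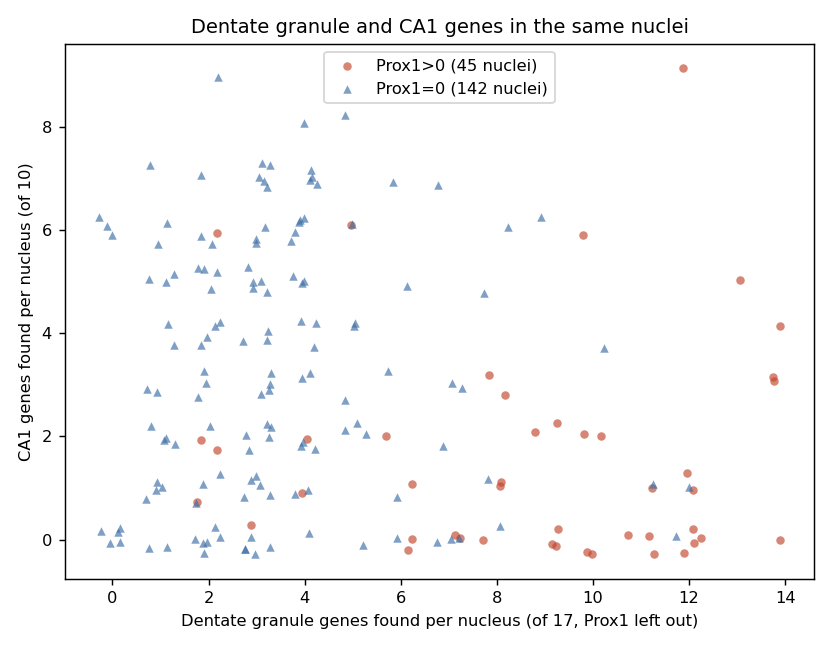
Each point is 1 nucleus, placed by the number of 17 dentate granule genes (x axis) and of 10 CA1 genes (y axis) found in it, with small random shifts so that points do not cover each other. The 45 Prox1>0 nuclei reach higher on the x axis (median 9 genes) than the Prox1=0 nuclei (median 3 genes), and nuclei with many genes of both lists occur.

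On the lower side, Neurod6 was followed by Sv2b, Arc, Slc8a1, Cck, Rasgrp1, Nr4a1, Cpne7, Mpped1, Sez6, St8sia5 and Stmn2. Sv2b, a synaptic vesicle glycoprotein, was found in 14 of 45 Prox1>0 nuclei (31.1%) and 81.7% of Prox1=0 nuclei, with a median of 0 TPM (highest 244.4) in Prox1>0 nuclei and 182.1 TPM in Prox1=0 nuclei. Slc8a1, a plasma membrane sodium-calcium exchanger, was found in 44.4% and 90.8%, and St8sia5, a sialyltransferase of gangliosides, in 13.3% and 54.9%. Cck, the neuropeptide cholecystokinin, had a median of 0 TPM (0 to 4063) in Prox1>0 nuclei and a mean log2(TPM + 1) of 4.61, against 8.69 in Prox1=0 nuclei, whose highest value was 10660 TPM, and was found in 48.9% and 83.8%. All 4 genes were lower in Prox1>0 nuclei on each of the 7 plates, although the nearest plate difference for Cck was close to 0 (-0.00249). Rasgrp1, an exchange factor for Ras, was found in 62.2% and 90.1%, Cpne7, a copine that binds membranes with calcium, in 37.8% and 64.8%, Sez6, a dendritic membrane protein, in 44.4% and 83.1%, and Stmn2, a regulator of microtubules, in 33.3% and 63.4%. Without plate X061616p3 Arc and Cck no longer passed (mean differences -2.13 and -2.73), and among nuclei with both Gad genes at 0 Rasgrp1 and Cpne7 did not (-1.80 and -1.95).

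Immediate early genes, which neurons transcribe after activity, were lower in part. Of 12 that entered, 4 were lower and 0 higher: Arc, Egr1, Nr4a1 and Nr4a3, with a list median of -0.59 against 0.04 for all genes. As a log2 ratio of mean TPM 2 were lower. Arc, a synaptic protein that mediates receptor uptake, was found in 16 of 45 Prox1>0 nuclei (35.6%) and 73.9% of Prox1=0 nuclei, with medians of 0 TPM (0 to 4446) and 241.3 TPM (0 to 8197). Its difference was -3.31 and -3.68, lower on 6 of 7 plates, the exception being X061616p4, which holds 2 Prox1>0 nuclei. Nr4a1, a nuclear receptor, was found in 20% and 57.8%, and Egr1, a zinc finger factor, in 31.1% and 64.1%. Fos was found in 8.89% and 14.8% and did not pass, with differences of 0.39 and -0.99.

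Of 91 receptor, channel and calcium genes that entered, 15 passed in either direction (16.5%), against 4.27% of all genes. Of 7 metabotropic glutamate receptors Grm2 and Grm7 were higher, and of 15 AMPA, NMDA and kainate subunits Grik2 was higher by 2.31 and 1.30. Of 11 GABA-A receptor subunits Gabra4, a subunit of dentate extrasynaptic receptors, was higher by 1.97 and 1.67, and was found in 68.9% of Prox1>0 nuclei and 52.8% of Prox1=0 nuclei. Of 24 potassium channel genes, Kcnk1 and Kcnc4 were higher and Kcnd2, Kcnh7 and Kcnn2 lower; Kcnk1, a potassium leak channel, differed by 3.42 and 1.90. Of 16 calcium, sodium and HCN channel genes the sodium channel Scn3a was higher and the calcium channel subunit Cacna2d3 lower. Of 18 calcium handling genes Calb1 was higher and Calm2, Hpca and Ryr3 lower. Hpca, the calcium sensor hippocalcin, was found in most nuclei of both groups, at a median of 560.3 TPM in Prox1>0 nuclei and 1520 TPM in Prox1=0 nuclei. The list medians lay between -0.30 and 0.49.

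Genes of axon guidance and synaptic adhesion differed in both directions: of 41, 8 were higher, among them Sema5a, Cdh9 and Ntng2, and 4 were lower (Epha6, Plxna1, Cntn4 and Nrxn3). Sema5a, a semaphorin that restrains synapse number on granule cells, was found in 75.6% of Prox1>0 nuclei and 19.7% of Prox1=0 nuclei. Of 34 transcription factor genes, Zbtb20, Mef2c, Nfia and Rfx3 were higher and Neurod6 and Bcl11a lower. Bcl11a, a zinc finger factor of projection neurons, was found in 62.2% and 77.5%. Of 8 nuclear long noncoding RNAs Snhg11, Rian and Mirg were lower. Of the other marker lists, 4 genes of interneurons from the caudal ganglionic eminence entered. Only Adarb2 of these was higher (51.1% and 4.93%), and the list median was -0.13. None of the 4 entered genes from the medial eminence passed, against 4.27% of all genes, and the list median was 0.37. Of this list Kcnc1 was higher in Prox1>0 nuclei on 7 of 7 plates (0.44 to 3.60) and Kcnc2 lower on 6 of 7. Mbp, a myelin gene, was the only oligodendrocyte gene of 8 that passed, with differences of 5.30 and 1.21 and a list median of 1.56, and 0 of 7 astrocyte genes passed, with a list median of 1.36. Mbp did not pass without plate X041317p6, without X041317p7 or with a pseudocount of 10, and 2 astrocyte genes were higher without X041317p7. The summed oligodendrocyte TPM had a median of 290.3 (0 to 44289) in Prox1>0 nuclei and 126.4 (0 to 26113) in Prox1=0 nuclei, with none of the 8 genes at 0 throughout either group. Leaving out the nuclei carrying at least 3 genes of a glial list leaves 2 Prox1>0 nuclei in the X061616 set. Then 12 of 16 dentate genes were higher and 0 lower (median 3.10), and 5 of 10 immediate early genes were lower. The share of all genes that passed also rose with this filter, from 4.27% to 11.8% of 10751 genes, of which 25.2% were higher. These counts are therefore not set against those with all nuclei.

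**Figure D4:**
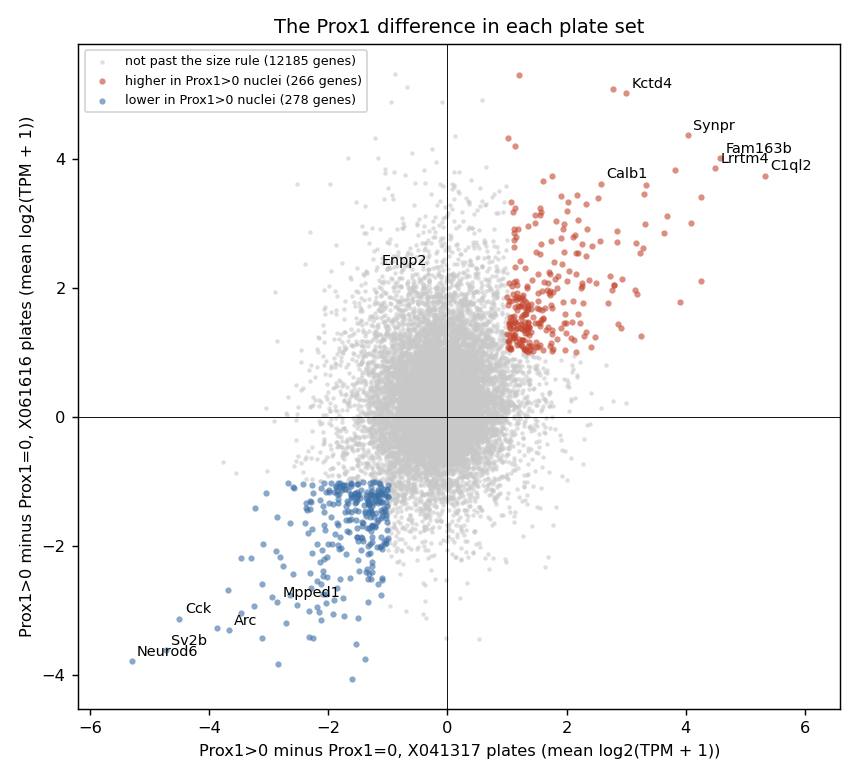
Each point is 1 of 12729 genes, with Prox1>0 minus Prox1=0 in mean log2(TPM + 1) in the X041317 plates on the x axis and in the X061616 plates on the y axis. The 2.09% of genes higher by the size rule lie at the upper right with C1ql2, Synpr and Lrrtm4, the 2.18% lower ones at the lower left with Neurod6 and Sv2b, and Enpp2 lies in the upper left, above 0 in the X061616 set alone.

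The genes whose levels were most like Prox1 were ranked by Spearman correlation of log2(TPM + 1) across nuclei, within each plate set, among 8354 genes found in at least 20% of the nuclei. This is a description, since nuclei of a set share plates, and may share depth and RNA of other cell types. The 10 with the highest smaller-of-both coefficients were Slc4a4, Lrrtm4, Pitpnm2, Sema5a, Grm2, Il1rap, C1ql2, Slc29a4, Maml2 and Synpr. Slc4a4 had coefficients of 0.60 in the X061616 set and 0.58 in the X041317 set, and C1ql2 had 0.45 and 0.66. Slc29a4, a monoamine transporter, is the only gene of these 10 outside the lists and genes named above, found in 51.1% of Prox1>0 nuclei and 11.3% of Prox1=0 nuclei.

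Between the plate sets more genes were lower than higher in X061616 nuclei, except without plate X061616p3. A gene counted when the means of the 2 sets differed by at least 1, every plate of a set lay above every plate of the other, and at least 20% of nuclei of the higher set had it. In X061616 nuclei 0.864% of 12734 genes were higher and 3.64% lower than in X041317 nuclei. Higher genes made up 19.2% of those that passed, 31.7% with a pseudocount of 0.1, 37.4% without plate X041317p1 and 50.2% without X061616p3. With a plate left out fewer plates must separate, so the rule is easier to pass and a rise cannot be laid to that plate. The share that passed was 4.50% with all plates, 7.50% without X041317p1 and 8.07% without X061616p3. It was 7.49% without X061616p4 and 7.81% without X061616p5. Lars2, the mitochondrial leucyl-tRNA synthetase, was higher by 3.34, at a median of 289.3 TPM (37.5 to 8831) in X061616 nuclei and 36.2 TPM (0 to 549.8) in X041317 nuclei. Cbx3, a heterochromatin protein, was lower by 4.59, at a median of 0 TPM (0 to 266.6) in X061616 nuclei and 188.6 TPM (0 to 1552) in X041317 nuclei. Single nuclei of the sets overlap in both genes, while the plate means do not. The other named genes were Tnfrsf25, C1qtnf4, Rab24, Cpne8 and Bcan, which were higher, and Efha2, Pdcd4, Nptn, Tmf1 and Arglu1, which were lower. All 12 kept their direction within Prox1>0 and within Prox1=0 nuclei: the difference of Lars2 was 3.14 and 3.34, and that of Cbx3 was -4.76 and -4.59. Cpne8 did not pass as a log2 ratio of mean TPM (0.55), and Tnfrsf25 (0.29) and Bcan (0.50) did not pass among nuclei with both Gad genes at 0.

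Arc and Egr4 of 12 immediate early genes were higher in X061616 nuclei, with a list median of 1.03 against -0.11 for all genes. That count was not stable: 8 of 12 were higher without plate X041317p1, where fewer plates must separate. The count was 6 as a log2 ratio of mean TPM and 4 among nuclei with both Gad genes at 0. Cck was higher by 2.92, found in 87.7% of X061616 and 68.8% of X041317 nuclei. Within Prox1>0 nuclei Arc differed by 2.16 between the sets and within Prox1=0 nuclei by 1.79, so the split by Prox1 and the split by plate set were both visible in this gene. Of the receptor and channel lists, Grik5 and Cacna1a were higher and Gabra4, Kcna2, Scn2a1 and Scn3a were among the lower genes. Scn3a was lower by 2.45 and was found in 50.8% of X061616 and 77% of X041317 nuclei. None of 35 transcription factor, 18 calcium handling, 8 oligodendrocyte or 7 astrocyte genes passed. Since 4.50% of all genes passed, a count of 0 in lists of this size is near the share for all genes. Of 10 CA1 genes Spink8 was higher and 0 were lower, with a list median of 0.55. Of 10 CA3 genes 0 passed, with a list median of -0.47. The part of the mix of CA fields in the set differences was not tested. The labels do not say what the plate sets stand for, and animal, day, sequencing and the mix of cells cannot be told apart.

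Against the nuclei of the same plates with Gad above Slc17a7, the pyramidal factor Neurod6 and 9 of 20 calcium handling genes were higher and genes of interneurons from the medial ganglionic eminence lower. Of 14699 genes, 2.03% were higher and 2.64% lower in the Slc17a7 nuclei, by the same size rule as for Prox1 and with the genes of the rule left out. Higher genes made up 43.4% of these, 55.7% with a pseudocount of 10 and 22.6% without the nuclei carrying at least 3 genes of a glial list. The highest were Arpp21, Neurod6, Baiap2, Camkv, Ryr3 and Ctxn1. Arpp21, a cAMP-regulated phosphoprotein, was found in 93% of Slc17a7 nuclei and 84 nuclei with Gad above Slc17a7 (41.6%), with medians of 405.8 TPM (0 to 4901) and 0 TPM (0 to 1270). Among the lowest were Nxph1, Vstm2a, Col19a1, Rab3b and Kcnc1. Nxph1, a neurexin ligand of interneurons, was found in 2.67% and 45.5%. Of 10 medial eminence genes 7 were lower and 0 higher, with a median of -2.24 against -0.09 for all genes.

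Synapse and channel genes differed in both directions. Of 17 AMPA, NMDA and kainate subunits Grin2a was higher and Gria4 and Grik1 lower, and of 7 metabotropic glutamate receptors Grm7 was higher. Of 12 GABA-A receptor subunits 4 were higher in Slc17a7 nuclei, among them Gabra2 and Gabra5, and 4 were lower, among them Gabrd. Gabra5, a subunit of tonic inhibition in pyramidal neurons, was found in 57.8% of Slc17a7 nuclei and 34.6% of nuclei with Gad above Slc17a7, and Gabrd in 22.5% and 53.5%. Of 24 potassium channel genes 6 were higher and 3 lower, the lower ones being Kcna1, Kcnc1 and Kcnc2, channels of fast-spiking neurons. The calcium handling genes that were higher included Ryr3, Hpca and Itpka, and 2 were lower. Of 13 immediate early genes 4 were higher (Arc, Egr1, Nr4a1 and Nr4a3), or 2 without plate X041317p1 and 1 with a pseudocount of 10. Arc was found in 64.7% of Slc17a7 nuclei and 24.8% of nuclei with Gad above Slc17a7.

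Dentate granule genes were found on both sides of the transmitter rule. Of 18, 0 were higher in Slc17a7 nuclei and 1, Trpc6, was lower, with a list median of -0.11. Against only those nuclei with Gad above Slc17a7 that had Prox1 at 0, 3 of 18 were higher and 1 lower, with a median of 0.48. Prox1 was found in 45 Slc17a7 nuclei (24.1%) and in 59 of the nuclei with Gad above Slc17a7 (29.2%). In those 59 nuclei C1ql2 was found in 57.6% and had a mean of 288.1 TPM, against 13.3% and 48.5 TPM in the nuclei with Gad above Slc17a7 and Prox1 at 0. Slc32a1 was found in 13.6% of the 59 and 41.3% of those with Prox1 at 0, and Pvalb in 23.7% and 55.2%. At least 3 genes of a glial list were found in 59.3% of the 59 and 49% of those with Prox1 at 0. With the 59 left out 6.73% of genes passed the size rule in place of 4.67%.

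Compared with Slc17a7 nuclei of the cortex, the hippocampal nuclei had higher levels of the hippocampal transcription factor Zbtb20, of the Eph receptors Epha6 and Epha7 and of 5 of 11 GABA-A receptor subunits. A gene counted when it differed by at least 1 in the same direction from M2 cortex and from somatosensory cortex, with the same minimum share. Of 13494 genes 1322 (9.8%) were higher and 2.53% lower in hippocampus, and the median gene was higher by 0.21. Higher genes made up 79.5% of these, and 61.9% as a log2 ratio of mean TPM. Zbtb20 was found in 89.3% of hippocampal nuclei, 6 of 52 M2 nuclei (11.5%) and 1 of 22 somatosensory nuclei (4.55%). Its median was 908.4 TPM (0 to 4573) in hippocampus and 0 TPM in M2 (0 to 687.7) and in somatosensory cortex (0 to 45.3). The difference of 7.83 from M2 and 8.25 from somatosensory cortex was the largest of the named genes. Within the hippocampus Zbtb20 was found in 97.8% of Prox1>0 and 86.6% of Prox1=0 nuclei.

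The other genes highest in hippocampus were Cpne6, Epha6, Nr3c2, Epha7 and Ncdn. Cpne6, a copine of postsynaptic sites, had a median of 2365 TPM in hippocampal nuclei, 112.2 TPM in M2 nuclei and 0 TPM in somatosensory nuclei. Nr3c2, the mineralocorticoid receptor, was found in 78.1%, 30.8% and 22.7%. The lowest were Kcnt1, Fnbp1l, Col6a1, Necab3, Igsf9b and Stx1a. Kcnt1, a sodium-activated potassium channel, was found in 30.5% of hippocampal, 88.5% of M2 and 95.5% of somatosensory nuclei, and Col6a1, a collagen subunit, in 8.02%, 50% and 59.1%. Gabrd was the GABA-A subunit that was lower, and the list median was 1.71. Gabra5 was found in 57.8% of hippocampal, 15.4% of M2 and 13.6% of somatosensory nuclei. Of 41 guidance and adhesion genes 13 were higher and 3 lower, and of 36 transcription factor genes 8 were higher and 5 lower.

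Dentate and CA1 genes were part of the difference from cortex: 7 of 17 dentate genes, Prox1 among them, were higher (3 with a pseudocount of 10) and 0 lower, and 4 of 10 CA1 genes were higher and 2 lower. C1ql2 was found in 21.4% of hippocampal nuclei and in 0 of 52 M2 and 0 of 22 somatosensory nuclei. Gria1, an AMPA receptor subunit, was higher by 2.87 and 2.99, while 3 of 15 ionotropic subunits were lower (Gria4, Grik3 and Grik5). Markers of other cells differed with the region: 3 of 8 oligodendrocyte genes, among them Mbp, were higher in hippocampus (1 without plate X041317p7 and 0 without the nuclei carrying at least 3 genes of a glial list), and Ttr was found in 32.6% of hippocampal nuclei and in 0 of 52 and 0 of 22 cortical nuclei. At least 3 genes of a glial list were found in 42.8% of hippocampal, 21.2% of M2 and 13.6% of somatosensory nuclei. Region and plate cannot be told apart. A further comparison used hippocampal nuclei of the X061616 plates and 28 M2 nuclei of plate X061616p1, with the somatosensory nuclei unchanged. In it 53.7% of the genes that had passed did so again.

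**Figure D5:**
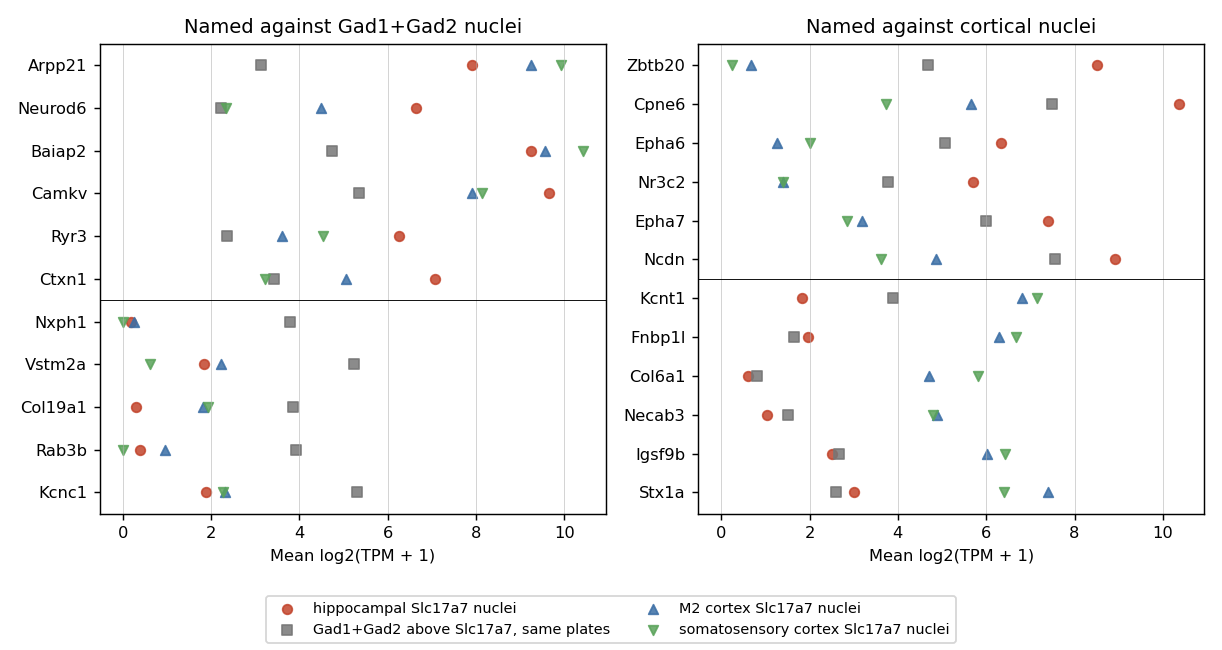
The x axis gives the mean log2(TPM + 1) over nuclei of 4 groups for genes named against nuclei with Gad above Slc17a7 (left) and against cortical nuclei (right); genes above the line are higher in hippocampal Slc17a7 nuclei. Arpp21 separates Slc17a7 nuclei of hippocampus and both cortical areas from nuclei with Gad above Slc17a7, and Zbtb20 separates the hippocampal nuclei from those of cortex.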

How the data were processed

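Nuclei were purified by sucrose gradient, placed singly into 96-well plates by a sort on a DNA dye and GFP, and made into libraries by a modified Smart-seq2 protocol, per the labels' protocols. The authors deposited TPM per gene and nucleus; the submitters' processing notes name Bowtie, RSEM, TopHat2 (version 2.0.10), Seurat (version 2.2.0) and the build mm10, without role or order. The table holds 23420 genes, and each column has nearly the same total (999999.35 to 1000000.53). TPM keep no read depth, so no interval on a level was computed. Because RNA of a gene can come from other nuclei or free RNA, a gene found in few nuclei is read with care.

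Values were transformed to log2(TPM + 1), and genes found in at least 10 nuclei of a comparison entered it. The size rule (a difference of 1 in both plate sets or both cortical areas, and a share of 20%) was used in place of a test, since the labels name no animal and each group is 1 sample. The text names the 12 largest genes on each side for Prox1 and 6 for the other comparisons, ranked within the size rule; predicted genes and pseudogenes were counted but not named (11 higher and 22 lower for Prox1). Other listed genes named were chosen after their values were seen. Some genes that the rule names are not reported here. The members and lists were chosen with earlier results of these data known. Gene positions come from GENCODE and promoter windows from RefSeq, both on GRCm38. Alternatives were other pseudocounts, a ratio of mean TPM, no minimum share, stricter nucleus filters and each plate left out. The filter on glial-list nuclei, the X061616 plates alone against cortex, and the removal of Prox1>0 nuclei from those with Gad above Slc17a7 were added after seeing the data. Scripts, tested on simulated data, ran in Python 3.11.15 with scipy 1.17.1, matplotlib 3.10.9, pandas 2.3.3 and numpy 2.4.6.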

Additional observations from a re-analysis of the deposited data

Results flagged for a closer look

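Enpp2, an enzyme gene abundant in oligodendrocytes and choroid plexus, differed in opposite directions between the plate sets. It differed by 2.28 between Prox1>0 and Prox1=0 nuclei in the X061616 set and by -1.20 in the X041317 set. The difference between the sets was not tested. Enpp2 was found in 8 of 15 Prox1>0 nuclei (53.3%) and 15 of 50 Prox1=0 nuclei (30%) of the X061616 set, and in 11 of 30 (36.7%) and 44 of 92 (47.8%) of the X041317 set. Opposite differences of at least 1 were seen for 2.02% of 12729 genes.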

How the results depend on the processing

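No paired analysis was possible because no test was made and the labels name no animals; Prox1>0 and Prox1=0 nuclei share plates, and differences within plates are given for single genes as a description. The share of genes past the size rule depended on the scale and on which nuclei were kept. For Prox1>0 against Prox1=0 it was 4.27%, against 1.08% with a pseudocount of 10, 8.40% with 0.1 and 11.8% without nuclei carrying at least 3 genes of a glial list, which left 2 Prox1>0 nuclei in the X061616 set; leaving out a plate gave 4.00 to 5.32%. Between plate sets it was 4.50%, against 1.54% with a pseudocount of 10 and 13.1% without the glial-list nuclei. It was 27.1% with both Gad genes at 0, where fewer plates hold 10 nuclei. Leaving out a plate, which also leaves fewer plates to separate, gave 5.31 to 8.07%. Against nuclei with Gad above Slc17a7 it was 4.67%, against 1.26% with a pseudocount of 10, 9.00% with 0.1, 3.08% as a log2 ratio of mean TPM and 9.62% without the glial-list nuclei; leaving out a plate gave 4.28 to 5.15%. Against cortex it was 12.3%, against 4.03% with a pseudocount of 10 and 20.6% with 0.1; leaving out a plate gave 11.04 to 13.9%. The cause of these shifts was not tested. No named gene reversed under these alternatives. Of the values of genes named for Prox1, 97.9% stayed on the same side of the size rule, and 97.2% for the plate sets. All did in the other comparisons. Named genes were picked for large differences in the same nuclei, so these shares do not hold for all genes that passed. Of all genes past the size rule for Prox1, 25.2% passed again with a pseudocount of 10 and 43.4% on the ratio scale. The share was 58.3% with both Gad genes at 0, 99.6% with a pseudocount of 0.1 and 68.4 to 86.4% with a plate left out. On the ratio scale it was 55.7% for the plate sets, 42.4% against nuclei with Gad above Slc17a7 and 44.2% against cortex. On the ratio scale Arc (-1.39) and Cpne7 (-1.11) did not pass. The share of Prox1>0 nuclei lay between 20.6% and 26.9%. Depth is unknown, so a gene listed at 0 may have been missed.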
